A study of Homo sapiens with 9 samples.

Results

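The genes described here are 10 regulators and effectors of epithelial identity, of 60708 genes counted. They were chosen by name, with earlier results of these data known, and each was found in the count files by matching its gene identifier to its symbol. They comprise the transcription factors *GRHL1*, *GRHL2*, *OVOL1* and *OVOL2*, the splicing factors *ESRP1* and *ESRP2*, the surface protein *EPCAM*, the small GTPase *RAB25*, the membrane protease *ST14* and its inhibitor *SPINT1*. They were measured by RNA-sequencing in 9 libraries from untreated cells labelled as MDA-MB-231, an established human breast cancer line of the basal, triple-negative type. Of these, 3 libraries were labelled WT and came from parental cells, while CS16 and CS19, labelled as *SNAI1*-KO clones, gave 3 libraries each. By the methods of the study, the clones were made with Cas9, plasmids for homology-directed repair and guide RNAs against the first exon, the second exon and the end of the second exon of *SNAI1*, followed by selection with puromycin. Each clone is 1 line grown from a single cell, the WT cells are not a clone that went through the same selection, and differences between clone and parent cannot be told apart from effects of the targeted gene. Nothing in the labels said that the 3 libraries of a group came from separate cultures, so the p-values measure the spread between these libraries, which may be technical.

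Several counts were compared with the labels before the results. *SNAI1*, the targeted gene and a repressor of epithelial genes, was counted 16, 38 and 21 times in the WT libraries, 26, 40 and 49 times in CS16, and 57, 94 and 94 times in CS19. Its count was thus not lower in the libraries labelled as knockout. Against WT it was higher in CS19 at an adjusted p below 0.05 in edgeR's quasi-likelihood test, short of the fold threshold given below. In CS16, and in both clones together, it did not reach that adjusted p. A gene count sums all exons and does not look inside the targeted stretch, so it does not test the deletion itself. Single exons, RT-qPCR and protein, which the study also used to check the clones, were not analysed here. *CDKN2A*, *CDKN2B* and *MTAP*, neighbours on the short arm of chromosome 9 that MDA-MB-231 cells are known to have lost, had no count in any WT library. In the 6 clone libraries they had 1106 to 1575, 235 to 326 and 2139 to 3137 counts. Averaged over these libraries, this is at least 352-fold, 75.0-fold and 658-fold higher against a floor of 3 counts per WT library. The surface receptor *CD44*, abundant in MDA-MB-231, had 12765, 13853 and 11142 counts in WT and at most 2 in any clone library. The clones are therefore named by their labels, and whether the differences described below follow the loss of *SNAI1* or a difference between the cells sequenced cannot be told apart. By the thresholds given below, 12.6% of all genes tested in *SNAI1*-KO against WT were called higher and 14.3% lower, with a median log2 fold change of -0.00. Of the 5 genes of this label check, 3 were called higher and 1 lower. Their median log2 fold change was 11.03 as fitted and 6.41 with the genes at 0 in WT set at their lower bound.

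Epithelial cells keep their state through transcription factors that act on junction and surface genes. The Grainyhead-like factors encoded by *GRHL1* and *GRHL2* activate such genes, and the OVO-like zinc finger factors encoded by *OVOL1* and *OVOL2* hold down mesenchymal regulators. The epithelial splicing regulatory proteins encoded by *ESRP1* and *ESRP2* select epithelial exons in receptors and cytoskeletal proteins, *EPCAM* encodes an adhesion molecule widely used to mark epithelial tumour cells, and *RAB25* encodes a GTPase of recycling vesicles related to RAB11. *ST14* encodes matriptase, a serine protease of the epithelial surface, and *SPINT1* encodes its inhibitor HAI-1. SNAI1 and the ZEB factors repress epithelial genes through E-boxes of the sequence CAGGTG, and Grainyhead-like factors bind sites of the form AACNNGTT.

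Of the 10 genes, 3 matched an entry among the RefSeq promoters used here, on the GRCh38.p14 build: *GRHL1*, *RAB25* and *SPINT1*. Those of *EPCAM*, *ESRP1*, *ESRP2*, *GRHL2*, *OVOL1*, *OVOL2* and *ST14* were not used here. All the matched ones are shown, whatever the expression of their gene, so that the E-boxes can be read in place. All 3 lie on the plus strand and are written 5′ to 3′ in lower case, with a CAGGTG E-box, or CACCTG where it lies on the opposite strand, in capitals. The *GRHL1* stretch spans chr2:9951443-9951692 and ends just before the start. The *RAB25* stretch spans chr1:156060910-156061159 and also ends just before the start. *SPINT1* has a start at 40844048 on chromosome 15, for which the upstream bases outside the annotated gene span chr15:40843798-40844017, and a second start at 40844477, for which only the 30 bases around its E-box are given, at chr15:40844439-40844468.
GRHL1: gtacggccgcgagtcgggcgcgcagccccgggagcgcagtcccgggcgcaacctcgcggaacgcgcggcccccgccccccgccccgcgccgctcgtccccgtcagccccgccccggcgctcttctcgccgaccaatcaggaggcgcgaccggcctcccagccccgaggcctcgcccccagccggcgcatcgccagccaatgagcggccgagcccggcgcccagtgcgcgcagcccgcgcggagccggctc
RAB25: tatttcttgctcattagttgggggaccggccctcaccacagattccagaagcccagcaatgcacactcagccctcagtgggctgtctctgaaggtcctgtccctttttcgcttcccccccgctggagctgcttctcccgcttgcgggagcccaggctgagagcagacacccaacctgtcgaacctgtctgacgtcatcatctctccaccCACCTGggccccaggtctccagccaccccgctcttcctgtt
SPINT1, first start: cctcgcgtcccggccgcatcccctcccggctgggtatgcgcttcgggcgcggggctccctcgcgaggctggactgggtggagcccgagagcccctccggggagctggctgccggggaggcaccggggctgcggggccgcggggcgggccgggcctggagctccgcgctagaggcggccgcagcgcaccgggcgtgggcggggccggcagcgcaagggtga
SPINT1, second start: tcccgggctgatCAGGTGtgtctcctcctc
The E-box of *RAB25* began 41 bases before the start and that of *SPINT1* 26 bases before its second start. No CAGGTG was found in either orientation in the 250 bases before the start of *GRHL1* or the first start of *SPINT1*, and AACNNGTT, whose form is the same on both strands, was found before none of these 4 starts. Among 35114 RefSeq promoter windows of 250 bases, 17.5% held CAGGTG or CACCTG and 3.00% held AACNNGTT. These matches describe the sequence and are not evidence of binding.

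The libraries held between 19527195 and 28627777 counted read pairs, with 21002464, 19726839 and 21909125 in WT, 19899414, 21463266 and 24770095 in CS16, and 19527195, 21481119 and 28627777 in CS19. Expression is given as CPM, a gene's counts scaled to the library total after normalisation with edgeR's TMM method. On that scale a floor of 3 counts was 0.0982 to 0.171 CPM, by library, a limit that covers counting error only because the reads carried no molecular identifiers. Unless DESeq2 is named, p-values given for genes come from edgeR's quasi-likelihood test, adjusted by the Benjamini-Hochberg method over all genes tested. A gene was called higher or lower when its adjusted p was below 0.05 and its log2 fold change reached 2 or -2. WT-2 stood apart from the other WT libraries. Its correlation with WT-1 and WT-3 over log2(CPM + 1) was 0.952 and 0.948 across genes, against 0.995 between WT-1 and WT-3, and the chi-square per degree of freedom of its counts was 188 and 230.2 against these libraries, compared with 14.6 between WT-1 and WT-3.

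Of the 10 genes, 5 passed the filter on low counts in the comparisons with WT: *EPCAM*, *SPINT1*, *ST14*, *ESRP2* and *GRHL1*. In *SNAI1*-KO, with both clones taken as 1 group of 6 libraries, *SPINT1*, *EPCAM*, *ST14* and *ESRP2* fell and *GRHL1* rose, so that the 5 tested genes were called, 4 lower and 1 higher. The fit of *SNAI1*-KO against WT held no term for the clone. Its p-values, also those of the lists below, treat libraries of the same clone as independent and do not extend to other clones. Across all 19631 genes tested in this comparison, 26.9% were called, 14.3% lower and 12.6% higher. *SPINT1* and *ST14* passed the filter through the WT libraries, since neither passed it among the clones alone, and for such genes a difference was built into the filter. The other 5, *RAB25*, *ESRP1*, *GRHL2*, *OVOL1* and *OVOL2*, had at most 5 counts in any library. In bulk RNA, fewer cells that express a gene and less RNA per cell cannot be told apart.

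**Figure D1:**
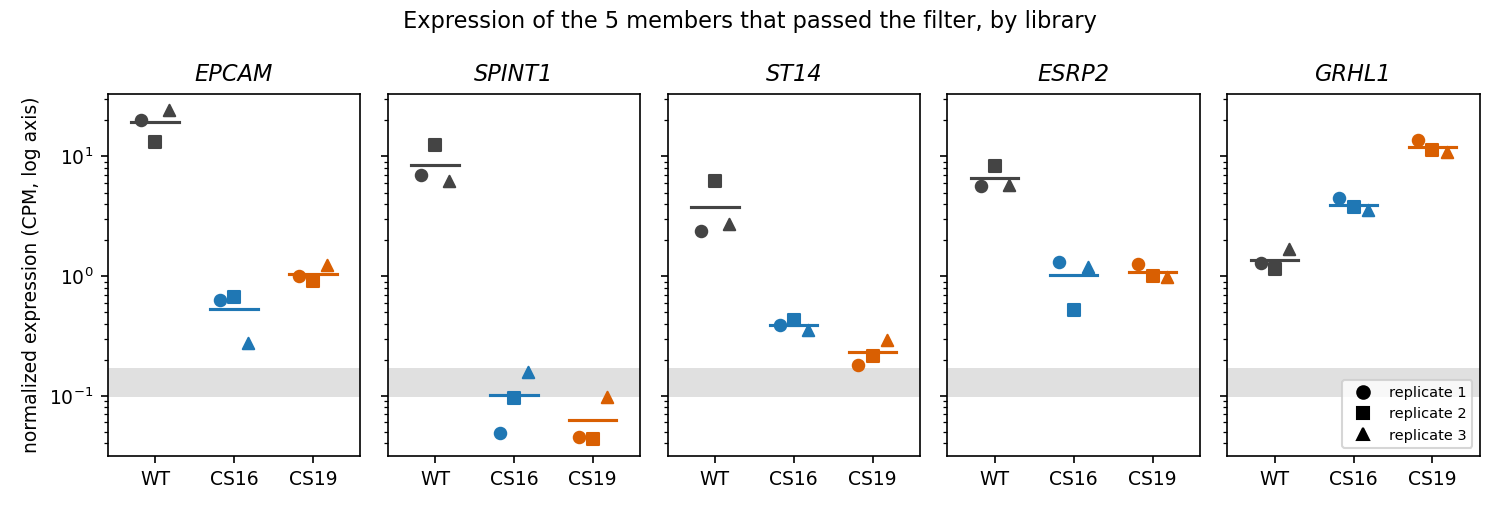
Normalised expression (CPM, log axis) of *EPCAM*, *SPINT1*, *ST14*, *ESRP2* and *GRHL1* in each library of WT, CS16 and CS19. Points are libraries, horizontal lines are group means, and the grey band spans the levels of 3 counts, 0.0982 to 0.171 CPM. For *EPCAM*, *SPINT1*, *ST14* and *ESRP2* every WT library lies above every clone library, while for *GRHL1* every clone library lies above every WT library. How often libraries separate in this way over all genes was not counted. In *SNAI1*-KO against WT, 63.7% of all genes tested had an adjusted p below 0.05 in edgeR's quasi-likelihood test.

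Among the transcription factors, *GRHL1* (ENSG00000134317.18, chr2:9951693-10002277 on the plus strand of GRCh38) was the exception to the fall of the other tested genes. Its counts were 26, 20 and 33 in WT, 92, 79 and 89 in CS16, and 303, 260 and 331 in CS19, which gave 1.28, 1.14 and 1.69 CPM, 4.51, 3.77 and 3.54 CPM, and 13.8, 11.3 and 10.8 CPM. The 3 groups did not overlap, and CS19 was the highest. For this gene and those below, the share of all genes whose libraries separate in the same way was not counted. The log2 fold change over WT was 1.55 in CS16 (standard error 0.27, adjusted p = 0.0022), short of the fold threshold, and 3.16 in CS19 (standard error 0.26, adjusted p = 4.62e-05), past both thresholds. For both clones together it was 2.53 (standard error 0.53, adjusted p = 0.00133). The clones themselves differed, with a log2 fold change of CS16 over CS19 of -1.61 (95% confidence interval -1.93 to -1.29, adjusted p = 4.09e-06). *GRHL1* shares 158 exon bases with an opposite-strand gene of 0 to 3 counts per library.

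The other 3 transcription factors were at or near the floor in every library. *GRHL2*, the member of the family best known from breast epithelium, had 3, 1 and 2 counts in WT, 1, 1 and 0 in CS16, and 0, 1 and 2 in CS19. *OVOL1* had 0, 1 and 0 counts in WT, 1, 0 and 0 in CS16, and 1, 0 and 2 in CS19. *OVOL2* had 2, 0 and 0 counts in WT, 2, 2 and 5 in CS16, and 1, 2 and 2 in CS19. Summed over a group, these counts allowed at most 0.228 CPM for *GRHL2* in WT and 0.257 CPM for *OVOL2* in CS16, the upper ends of their exact 95% Poisson intervals. Fitted without the filter, their adjusted p values for *SNAI1*-KO against WT were 0.301 for *GRHL2*, 0.744 for *OVOL1* and 0.296 for *OVOL2*. A difference of these genes between the groups was thus not detectable at this depth. *OVOL1* shares 1039 exon bases, and *GRHL2* 50, with an opposite-strand gene of 0 counts in every library. *OVOL2* shares 59 with *SNX5*, a gene on its own strand with 1934 to 7433 counts per library. Pairs that overlap both genes of such a pair are counted for neither by the default of featureCounts.

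**Figure D2:**
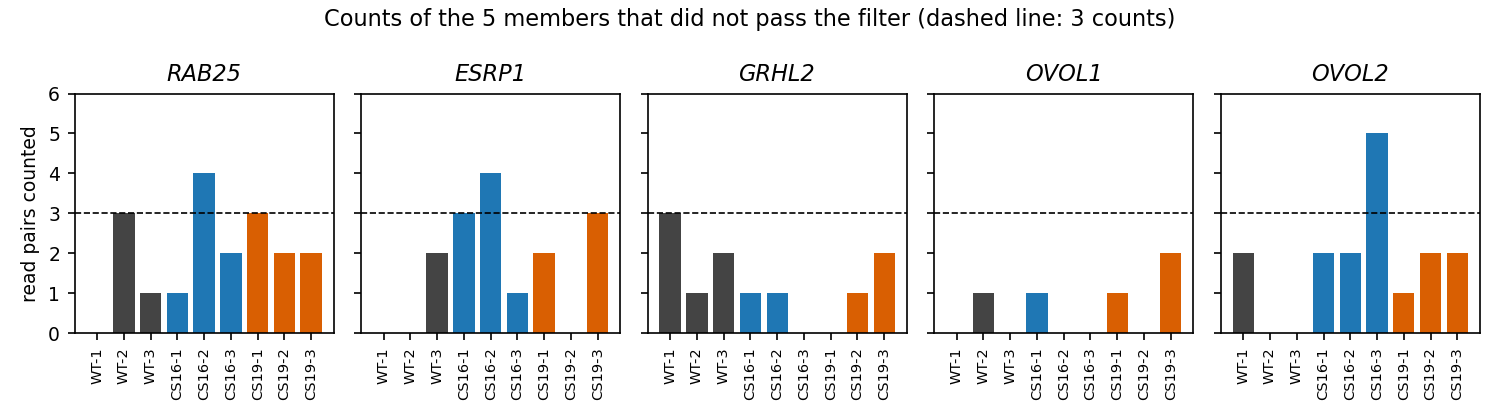
Counted read pairs of *RAB25*, *ESRP1*, *GRHL2*, *OVOL1* and *OVOL2* in each of the 9 libraries, with a dashed line at 3 counts. No bar exceeds 5 counts, and bars of 0 to 3 counts occur in each of the 3 groups.

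Of the splicing factors, *ESRP2* was lower in both clones and *ESRP1* was near the floor. *ESRP2* (ENSG00000103067.14, chr16:68229033-68238102 on the minus strand) stood at 5.67, 8.39 and 5.75 CPM in the WT libraries, at 1.32, 0.525 and 1.19 CPM in those of CS16, and at 1.27, 0.997 and 0.982 CPM in those of CS19. WT did not overlap the clones, and the clones overlapped each other. The log2 fold change over WT was -2.66 in CS16 (standard error 0.39, adjusted p = 0.000952) and -2.57 in CS19 (standard error 0.29, adjusted p = 0.000228). Between CS16 and CS19 it was -0.09 (95% confidence interval -0.82 to 0.65, adjusted p = 0.89), an interval that still holds differences of over 1.5-fold. In total the WT libraries held 374 counts of *ESRP2*, against 68 in CS16 (27, 11 and 30) and 81 in CS19 (28, 23 and 30). *ESRP2* shares 227 exon bases with *NFATC3* on the opposite strand, a gene with 438 to 1009 counts per library, and because strand was not used in the counting, pairs that overlap both genes are counted for neither by the default of featureCounts.

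*ESRP1*, the paralog of *ESRP2*, had 0, 0 and 2 counts in WT, 3, 4 and 1 in CS16, and 2, 0 and 3 in CS19. In CPM, the exact 95% Poisson intervals of its summed counts reached from 0.00423 to 0.126 for WT, from 0.0519 to 0.237 for CS16 and from 0.0215 to 0.154 for CS19. These intervals overlap, and the adjusted p without the filter was 0.373 for *SNAI1*-KO against WT.

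*EPCAM* was the most abundant of the 10 genes in WT and fell in both clones. *EPCAM* (ENSG00000119888.11, chr2:47345158-47387601 on the plus strand) had 406, 232 and 477 counts in WT, 13, 14 and 7 in CS16, and 22, 21 and 38 in CS19. Expressed as CPM, this was 20.02, 13.2 and 24.5 in WT, 0.637, 0.668 and 0.279 in CS16, and 1.00, 0.911 and 1.24 in CS19. Every clone library was below every WT library, and every CS16 library was below every CS19 library. The log2 fold change over WT was -5.16 in CS16 (standard error 0.42, adjusted p = 5.12e-05) and -4.14 in CS19 (standard error 0.31, adjusted p = 3.43e-05). In ratios of summed counts, corrected for library size, WT was 38.1 times CS16 (counting interval 27.1 to 55.2) and 18.2 times CS19 (14.5 to 23.1). The difference between the clones, a log2 fold change of CS16 over CS19 of -1.04 (95% confidence interval -1.82 to -0.25), lay just at the threshold with an adjusted p of 0.05, which ranged from 0.0396 to 0.231 over the alternatives tried. Leaving out CS16-3, the library with the fewest *EPCAM* counts, gave a value of -0.70 (adjusted p = 0.211). No other annotated exon overlaps those of *EPCAM*.

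*RAB25* (chr1:156061160-156070504) had 0, 3 and 1 counts in WT, 1, 4 and 2 in CS16, and 3, 2 and 2 in CS19. Its summed counts were 4 in WT and 7 in each clone, with upper Poisson limits (CPM) of 0.179 for WT, 0.217 for CS16 and 0.191 for CS19. Without the filter its adjusted p was 0.644 for *SNAI1*-KO against WT, so that no difference was detectable.

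The protease *ST14* and its inhibitor *SPINT1* both fell, and *SPINT1* had the largest fold change of the 5 tested genes. *SPINT1* (ENSG00000166145.15, chr15:40844018-40858207 on the plus strand) had 141, 219 and 122 counts in WT, 1, 2 and 4 in CS16, and 1, 1 and 3 in CS19. The levels in WT were 6.95, 12.5 and 6.26 CPM, while the clone libraries lay between 0.0434 and 0.159 CPM, around the floor of 3 counts. The fitted log2 fold change over WT was -6.25 in CS16 (standard error 0.51, adjusted p = 5.50e-05) and -6.88 in CS19 (standard error 0.51, adjusted p = 3.07e-05). With 7 counts over the CS16 libraries and 5 over the CS19 libraries, the size of this fall was imprecise, and the ratio of WT to clone was 79.9 for CS16 (counting interval 38.5 to 200) and 127 for CS19 (54.2 to 394). *SPINT1* shares 100 exon bases with its antisense gene *SPINT1-AS1*, which had 0 to 2 counts per library.

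*ST14* (ENSG00000149418.11, chr11:130159782-130210362 on the plus strand) had 48, 109 and 53 counts in WT, 8, 9 and 9 in CS16, and 4, 5 and 9 in CS19. Its levels were 2.37, 6.22 and 2.72 CPM in the WT libraries, 0.392, 0.430 and 0.358 CPM in those of CS16, and 0.182, 0.217 and 0.295 CPM in those of CS19. All clone libraries were below WT and above the floor, and the CS16 libraries were above the CS19 libraries. The log2 fold change over WT was -3.21 in CS16 (standard error 0.48, adjusted p = 0.000994) and -3.93 in CS19 (standard error 0.52, adjusted p = 0.000505). The ratio of WT to clone was 9.37 for CS16 (counting interval 6.22 to 14.7) and 15.4 for CS19 (9.51 to 26.5). The inhibitor thus differed by more than the protease in each clone, although the difference between the 2 genes was not tested. *ST14* and *SPINT1* did not pass the filter in CS16 against CS19. Fitted without the filter, their adjusted p for CS16 against CS19 was 0.547 for *ST14* and 0.794 for *SPINT1*. No difference between the clones was thus detectable for either gene.

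**Figure D3:**
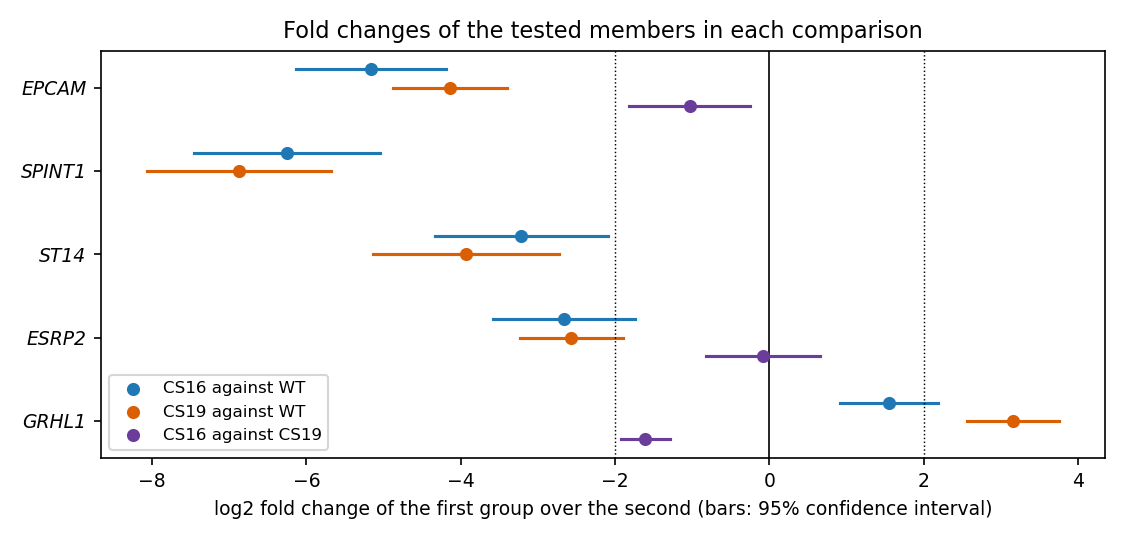
Log2 fold changes of the tested genes for CS16 against WT, CS19 against WT and CS16 against CS19, with bars for the 95% confidence interval and dotted lines at -2 and 2. *SPINT1*, *EPCAM*, *ST14* and *ESRP2* lie below -2 in both clones against WT, *GRHL1* lies at 1.55 in CS16 and 3.16 in CS19, and *ST14* and *SPINT1* have no value for CS16 against CS19.

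Taken clone by clone, 4 of the 10 genes were called lower and 0 higher in CS16 against WT, where 15.3% of all 18611 genes tested were called lower and 11.8% higher. In CS19 against WT, 4 were called lower and 1 higher, where 14.4% of 18935 genes were called lower and 12% higher. Both comparisons share the WT libraries. In CS16 against CS19, 0 of the 3 tested genes were called in edgeR's quasi-likelihood test with the fold threshold, where 1.13% of 17538 genes were called (0.633% higher and 0.496% lower in CS16). At an adjusted p below 0.05 without the fold threshold, 63.7% of all genes tested passed in *SNAI1*-KO against WT (31.1% higher and 32.6% lower), 55.6% in CS16 (27% and 28.6%), 52.9% in CS19 and 27.4% in CS16 against CS19. By that rule 2 of the 3 genes tested between the clones passed, and they were *GRHL1* and *EPCAM*, which were also the 2 with an unadjusted p below 0.05. *EPCAM* did not pass it under DESeq2 (adjusted p = 0.159), the replicate block (0.105) or the shared fit of the 3 groups (0.231). Its log2 fold change in each stayed close to the -1.04 given above (-1.05 with the replicate block, -1.02 in the shared fit). DESeq2 likewise called 0 of the 10 genes between the clones with the fold threshold.

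WT-2 was the highest WT library for *ST14*, *SPINT1* and *ESRP2* and the lowest for *EPCAM* and *GRHL1*, although for *GRHL1* it lay close to WT-1. WT-2 had 2.44 times the mean of WT-1 and WT-3 for *ST14*, 1.89 times for *SPINT1* and 1.47 times for *ESRP2*, but 0.595 times for *EPCAM* and 0.767 times for *GRHL1*. Without WT-2, all calls of these genes in the comparisons with WT were as with it. For *ST14*, the gene with the widest WT spread, the log2 fold change in *SNAI1*-KO was -3.57 (standard error 0.37, adjusted p = 5.70e-06) and ranged from -3.82 to -3.02 when single libraries were left out.

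**Figure D4:**
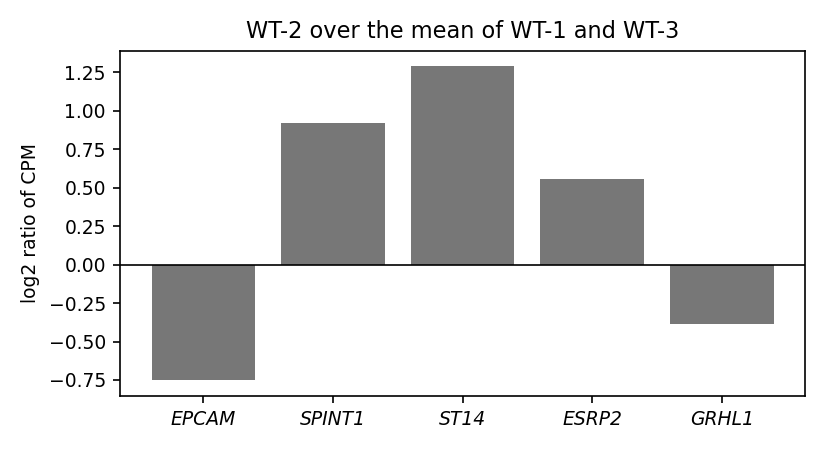
Expression (CPM) in WT-2 divided by the mean of WT-1 and WT-3 for the 5 tested genes, drawn as bars on a log2 scale from 0, where both are equal. The bars of *ST14* (ratio 2.44), *SPINT1* (1.89) and *ESRP2* (1.47) point up, and those of *GRHL1* (0.767) and *EPCAM* (0.595) point down.

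To compare levels between genes, counts were divided by exon length and scaled to the same total in each library (TPM). In WT, *EPCAM* was the highest at 25.03 ± 5.44 TPM, followed by *SPINT1* at 7.94 ± 3.77, *ESRP2* at 4.14 ± 1.29, *ST14* at 3.01 ± 1.91 and *GRHL1* at 0.547 ± 0.0475 TPM (SD, n = 3 each). *SPINT1* and *ESRP2* overlapped between libraries, as did *ESRP2* and *ST14*, whereas *EPCAM* lay above and *GRHL1* below all the others of these 5. In both clones *GRHL1* led, with 1.56 ± 0.386 TPM in CS16 and 4.58 ± 0.843 TPM in CS19 (SD, n = 3 each). It was followed by *EPCAM* at 0.677 ± 0.291 and *ESRP2* at 0.631 ± 0.321 TPM in CS16, which overlapped, and by *EPCAM* at 1.30 ± 0.0788 and *ESRP2* at 0.636 ± 0.124 TPM in CS19, which did not. Of the 5 tested genes, *ST14* came next, at 0.297 ± 0.0346 TPM in CS16 and 0.168 ± 0.0289 TPM in CS19. *SPINT1*, second in WT, lay at 0.0874 ± 0.0470 TPM in CS16 and 0.0518 ± 0.0203 TPM in CS19. Of the genes near the floor, *RAB25* averaged 0.186 and 0.175 TPM in these clones, and *OVOL2* 0.185 and 0.0915 TPM. The mean of *RAB25* was above that of *ST14* in CS19, but their libraries overlapped. Over all 10 genes, the summed CPM came to 36.5, 41.8 and 41.2 in WT, 7.30, 6.01 and 5.85 in CS16, and 16.6, 13.7 and 13.8 in CS19.

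The genes whose pattern over the 9 libraries was nearest to that of each tested gene were found by the root-mean-square difference of centred log2(CPM + 1) values. For *GRHL1* these were *SOX21* (difference 0.169), *ESRRB* (0.174) and *PADI2* (0.202), which like *GRHL1* were highest in CS19. For *EPCAM* they were *PDGFC* (0.110), *TXNIP* (0.158) and *SERPINB1* (0.162). For *ESRP2* they were *ACADVL* (0.135), *PDE4DIPP2* (0.148) and *GALNT7-DT* (0.150). For *ST14* they were *NACC2* (0.0851), *CDH24* (0.102) and *ARHGAP26* (0.103), and for *SPINT1* they were *ADIRF-AS1* (0.0788), *SLC15A3* (0.0903) and *RRAD* (0.0941). Adding 1 to the CPM shrinks the differences of genes at low levels, so nearness by this measure is not an equal fold change. *NACC2*, for example, averaged 97.0 CPM in WT, 30.9 in CS16 and 24.7 in CS19, a smaller fold difference than that of *ST14*. All but the neighbours of *GRHL1* were lower in both clones than in WT.

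Genes that work with the 10 genes were described as lists, in *SNAI1*-KO against WT unless stated otherwise, against a median log2 fold change of -0.00 and a share of 26.9% called (12.6% higher and 14.3% lower) over all genes tested. List and marker genes near the floor in the clones passed the filter through WT, and those near the floor in WT passed it through the clones. For both, as for *SPINT1* and *ST14*, a difference was built into the filter, and so into the list counts and medians. Of 10 other epithelial transcription factors, 9 were tested, of which 0 were called higher and 4 lower, with a median log2 fold change of -1.46. Of these, *EHF* and *ELF3*, epithelial ETS factors, had 2095 to 4642 and 96 to 123 counts in the WT libraries, against at most 2 and 9 in any clone library. *SPDEF*, another ETS factor, and *TP63*, the regulator of basal epithelium, had 390 to 846 and 21 to 27 counts in WT and at most 2 in any clone library. The most abundant factor of the list was *EHF* in WT, at 120 to 235 CPM, and *KLF5* in both clones, at 29.4 to 35.3 CPM. The summed level of the list was 216 to 304 CPM for WT, 35.5 to 36.7 CPM for CS16 and 35.6 to 43.8 CPM for CS19.

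Of 14 other splicing regulators, all were tested, 0 were called higher and 3 lower, a share of 21.4%, near that of all genes. Their median was -0.13. *RBM47*, an RNA-binding protein of epithelial cells, fell from 53.5 to 3.58 CPM on average (log2 fold change -3.90, adjusted p = 5.18e-08), *CELF2* had a log2 fold change of -3.82 (adjusted p = 6.79e-05), and *MBNL2* had one of -2.25 (adjusted p = 1.54e-05). The summed level of this list was close in all groups, with 2112 to 2375 CPM for WT, 2141 to 2336 CPM for CS16 and 1934 to 2003 CPM for CS19, and *PTBP1* was its most abundant gene in every library. Of 12 genes known to be spliced by ESRP proteins, 2 were called higher and 2 lower (33.3%), also near the share of all genes, with a median of -0.73. *FGFR2*, a receptor with epithelial and mesenchymal isoforms, had 1 to 2 counts in WT and 744 to 1482 in the clone libraries, and *ENAH*, an actin regulator, rose with a log2 fold change of 2.49 (adjusted p = 1.40e-05). *CD44*, given above, was among those called lower. Gene counts sum all exons, and the exons used were not analysed here.

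The matriptase system had 13 genes, of which 9 were tested, 1 was called higher and 5 lower, with a median of -2.63. *PLAU*, the urokinase precursor that matriptase activates, fell from between 6621 and 8818 counts in WT to between 19 and 32 in the clones, a log2 fold change of -8.53 (adjusted p = 1.61e-10). *SPINT2*, the second HAI inhibitor, fell from between 1164 and 2659 counts in WT to between 6 and 47 in the clones, a log2 fold change of -6.37 (adjusted p = 2.52e-07). *MST1R*, the receptor of macrophage stimulating protein, fell with a log2 fold change of -5.74 (adjusted p = 1.67e-07), and *TMPRSS2*, a membrane serine protease, had 55 to 102 counts in WT and at most 1 in any clone library. *F2RL1*, a protease-activated receptor named here after its values were seen, fell with a log2 fold change of -2.63 (adjusted p = 2.82e-07). *HGF*, the growth factor activated by matriptase, had no count in WT. It had 25, 19 and 26 counts in CS16, at least 6.69-fold higher on average against the floor, and was called there. In CS19 it had 6, 12 and 4 counts, at least 1.95-fold higher on average, and did not pass the filter against WT. Over all genes tested, 11.8% were called higher and 15.3% lower in CS16 against WT, and 12% and 14.4% in CS19. In CS16 the list had 1 called higher and 6 lower of 9 tested, and in CS19 0 higher and 6 lower of 8 tested. Its summed level was 1064 to 1291 CPM for WT, 162 to 184 CPM for CS16 and 141 to 149 CPM for CS19.

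Among relatives, partners and proteases of EpCAM, all 12 were tested, 1 was called higher and 5 lower, with a median of -1.10. *CLDN7*, a claudin that binds EpCAM, fell with a log2 fold change of -5.96 (adjusted p = 4.37e-07), *ADAM10*, a sheddase, with one of -2.14 (adjusted p = 7.51e-07), and *FHL2*, a partner of its cleaved tail, with one of -2.01 (adjusted p = 1.72e-06). *TSPAN8*, a tetraspanin named here after its values were seen, fell with a log2 fold change of -3.93 (adjusted p = 1.49e-05). *LEF1*, a transcription factor of that signalling route, rose with a log2 fold change of 2.69 (adjusted p = 3.00e-06). *CTNNB1* was the most abundant gene of the list in every library, and the summed level was 1290 to 2004 CPM in WT and 987 to 1179 CPM in the clones.

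Of 13 genes of RAB25-related trafficking, all were tested, 2 were called higher and 6 lower, with a median of -0.65. *RAB11FIP4*, an effector of RAB11 proteins, had 5 to 8 counts in WT and 1035 to 1665 in the clones (log2 fold change 7.27, adjusted p = 8.02e-10), and *MYO5B*, the motor of recycling vesicles, rose with a log2 fold change of 3.15 (adjusted p = 5.75e-05). *RAB17*, another epithelial RAB, had 167 to 258 counts in WT and at most 2 in the clones. *CLIC3* (log2 fold change -4.41, adjusted p = 8.34e-08), which takes part in integrin recycling, and the integrin chains *ITGB1* (-3.34, adjusted p = 1.28e-08) and *ITGA5* (-2.002, adjusted p = 9.02e-07) fell. *ITGA5* lay just past the fold threshold, and WT-2 was its highest WT library (229 CPM, against 137 in WT-1 and 141 in WT-3). Its call without WT-2 is not given here. The summed level of this list was 2271 to 2696 CPM in WT and 647 to 730 CPM in the clones, where *ITGB1* was the most abundant gene in WT and CS19 and *RAB11A* in CS16.

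Of 30 other epithelial effector genes, 22 were tested, 3 were called higher and 7 lower, with a median of -0.65. *CLDN4*, a tight junction claudin, had 2629 to 3161 counts in WT and 2 to 9 in the clones (log2 fold change -9.19, adjusted p = 5.74e-10), and *AP1M2*, an adaptor subunit of epithelial sorting, fell with a log2 fold change of -6.85 (adjusted p = 7.80e-09). *PKP3*, a desmosomal plakophilin, had 16.3, 49.9 and 18.3 CPM in WT-1, WT-2 and WT-3, and at most 2 counts in the clones. *MAL2*, of apical transport, averaged 9.44 CPM in WT and had at most 2 counts in the clones. In the other direction, *CDS1* (2.43, adjusted p = 1.44e-06), an enzyme of phospholipid synthesis, and the tight junction genes *CGN* (2.59, adjusted p = 2.83e-06) and *MARVELD3* (3.63, adjusted p = 0.000141) rose on the log2 scale. *DSP*, encoding desmoplakin, was the most abundant gene of the list in every library, and the summed level was 766 to 997 CPM in WT and 490 to 543 CPM in the clones.

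The list of repressors of epithelial genes had 13 members, of which 12 were tested, 5 were called higher and 1 lower, with a median of 1.00. *TCF4*, which encodes the E2-2 factor, rose from at most 6 counts in any WT library to an average of 68.5 CPM in the clones (log2 fold change 8.32, adjusted p = 2.95e-09), and *TWIST1* rose with a log2 fold change of 5.16 (adjusted p = 1.62e-06). *GSC* and *TWIST2* had no count in WT and were at least 29.6-fold and 22.4-fold higher against the floor, on average over the 6 clone libraries. *FOXC2*, named here after its values were seen, had at most 1 count in any WT library and averaged 0.608 CPM in the clones. *KLF8*, a repressor of the Krüppel-like family, had at most 19 counts in any WT library and at most 1 in any clone library. The summed level of the list was 250 to 319 CPM for WT, 332 to 366 CPM for CS16 and 229 to 261 CPM for CS19, so that WT overlapped CS19 and lay below CS16. *ZEB1*, the most abundant member in WT-1 and WT-3 and named for that after its values were seen, had mean levels (CPM) of 109.8 for WT, 48.1 for CS16 and 46.5 for CS19, a log2 fold change of -1.22 in *SNAI1*-KO (adjusted p = 5.38e-05) that stayed short of the fold threshold. *TCF3* was the most abundant in the other libraries. Over all genes tested between the clones, 0.633% were called higher in CS16 and 0.496% lower. In this list, 1 gene was called higher in CS16 than in CS19 and 0 lower among 11 tested. That gene, *SNAI2*, chosen after its values were seen, had mean levels (CPM) of 33.2 in WT, 73.8 in CS16 and 3.62 in CS19.

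**Figure D5:**
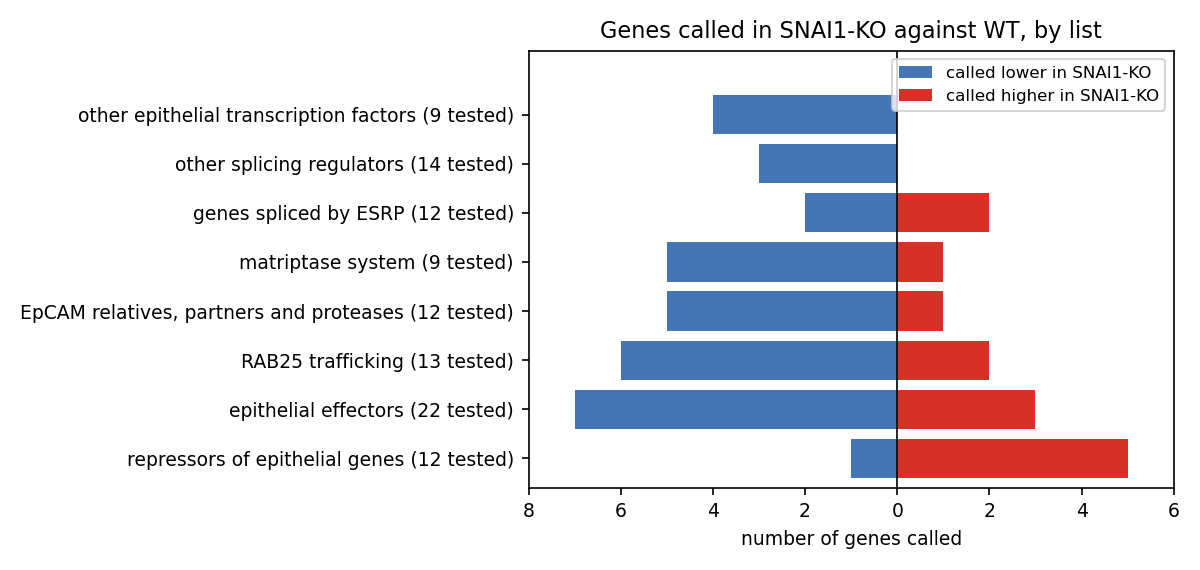
Number of genes called lower (left) and higher (right) in *SNAI1*-KO against WT in each list of related genes, with the number tested in brackets. All lists but the repressors and the genes spliced by ESRP have more genes called lower than higher, against 14.3% lower and 12.6% higher over all genes tested.

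Markers of the labelled cell type and of other cell types moved with the same groups. Over all genes tested in *SNAI1*-KO against WT, as given above, 12.6% were called higher and 14.3% lower. Of 12 mammary luminal markers, 10 were tested, 1 was called higher (*FOXA1*) and 7 lower, with a median log2 fold change of -4.44. The keratins *KRT19*, *KRT7*, *KRT8* and *KRT18* averaged 418, 385, 734 and 562 CPM in WT, and in the clones *KRT19* and *KRT7* had at most 2 counts in a library, while *KRT8* and *KRT18* averaged 2.29 and 59.2 CPM. The summed level was 1867 to 2727 CPM in WT and 230 to 276 CPM in the clones, where *XBP1* was the most abundant of the list. Of 12 mammary basal markers, 8 were tested, 0 were called higher and 7 lower, with a median of -5.32. *LAMB3*, *CAV1* and *EGFR* were among those called lower, *KRT5* and *KRT6B* were at 0 in all 9 libraries, and the summed level was 2442 to 2790 CPM in WT and 46.9 to 66.6 CPM in the clones.

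Of 12 mesenchymal markers, 10 were tested, 4 were called higher and 4 lower, with a median of -1.28, and the summed level was 2120 to 3174 CPM in WT and 493 to 641 CPM in the clones, with *VIM* the most abundant in all libraries but WT-2, where it was *COL5A1*. Those called higher were *SPARC*, *PDGFRA*, *CDH2* and *COL3A1*, and those called lower were *PDGFRB*, *COL1A2*, *COL5A1* and *FN1*. Of 12 embryonic kidney markers, 9 were tested, 4 were called higher (*SALL1*, *EYA1*, *EMX2* and *LHX1*) and 2 lower (*PAX8* and *GATA3*), with a median of 1.21. Their summed level was 63.9 to 99.0 CPM in WT and 141 to 161 CPM in the clones. Of 12 neural markers, 9 were tested, 6 were called higher, among them *NCAM1*, *NEFL*, *INSM1* and *NEFM*, and 2 lower (*TUBB3* and *ENO2*), with a median of 6.92 as fitted and 3.47 with genes at 0 in WT at their bound. Their summed level was 69.2 to 104 CPM in WT, where *ENO2* was the most abundant. It was 181 to 234 CPM in the clones, where *NEFL*, a gene with no count in WT, was the most abundant. Of 12 haematopoietic markers, 3 were tested, 1 was called higher and 2 lower (*CD14* and *CD34*), with a median of -3.12, and the summed level was 7.64 to 9.01 CPM in WT and 3.06 to 3.95 CPM in the clones. The pan-haematopoietic *PTPRC* had at most 8 counts in a WT library and at most 2 in a clone library. The part of any other cell type in the levels of the 10 genes was not tested.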

How the data were processed

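RNA of untreated cells was sequenced in 9 libraries, 3 each labelled WT, CS16 and CS19, and grouped by these labels. The authors depleted ribosomal RNA, prepared stranded libraries, trimmed reads with Trimmomatic 0.36, aligned them with STAR 2.7.2b to GRCh38 and counted read pairs on gencode genes with featureCounts of Subread 2.0.0 at a mapping quality of at least 30. The values deposited by the authors were raw counts per gene, not normalised. Strand was not used, so reads of overlapping opposite-strand genes cannot be told apart, and counts of near-identical genes were lowered by the quality filter.

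From these counts, genes were filtered with filterByExpr, normalised by TMM and tested with the quasi-likelihood test of edgeR 4.0.16 in R 4.3.3, in a separate fit for each comparison, with Benjamini-Hochberg adjustment over all genes tested. Each standard error was taken from the fold change and the F value of its test, as the ratio of the first to the square root of the second. DESeq2 1.42.0, RLE normalisation, no filter, no fold threshold, a replicate block, a shared fit and leaving out each library were alternatives. Poisson intervals and the binomial intervals of count ratios were at the 95% level and cover counting error only. TPM used the exon lengths in the files. The fits were tested on simulated counts with large changes planted in well-counted genes only. Changes in genes near the floor, and an outlying library such as WT-2, were not simulated. Figures and sequences were made in Python 3.11.15, and promoters came from RefSeq on GRCh38.p14.

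The 10 genes and all lists were chosen with earlier results of these data known. From each list, genes called in *SNAI1*-KO against WT were named, at most 4 per direction by adjusted p, and for each tested gene the 3 most like it in pattern. Some genes that this rule would name are not reported here, although they count in their lists. Lists were described by counts and medians, beside the same over all genes. The replicate numbers did not pair the libraries: the correlations of deviations between libraries of the same number ranged from -0.387 to 0.331.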

Additional observations from a re-analysis of the deposited data

Results flagged for a closer look

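*OVOL2* in CS16-3, at 0.199 CPM from 5 counts, lay apart from the other 5 clone libraries, with a gap of 0.657 of the whole range. The critical value used is Dixon's at the 95% level, set so that about 1 in 20 groups of normally distributed values would pass it by chance. That rate was not tested for counts as low as these.

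*GRHL1* differed between the clones, with a log2 fold change of CS16 over CS19 of -1.61 and all CS19 libraries above all CS16 libraries. How often this separation occurs over all genes was not counted, and 27.4% of all genes tested had an adjusted p below 0.05 between the clones in edgeR's quasi-likelihood test.

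*EPCAM* had a log2 fold change of CS16 over CS19 of -1.04, at the threshold with an adjusted p of 0.05 from edgeR. The adjusted p was 0.159 with DESeq2, 0.105 with the replicate block and 0.231 in the shared fit, all above the threshold. The log2 fold change itself stayed close to -1.04 in these fits, at -1.05 with the replicate block and -1.02 in the shared fit. Over all alternatives, the adjusted p ranged from 0.0396 to 0.231.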

How the results depend on the processing

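Of the fold changes and calls of the tested genes against WT, each kept its direction under every alternative tried, and the number of the 10 genes called was 5 for *SNAI1*-KO, 4 for CS16 and 5 for CS19 under all of them, except for CS16 by adjusted p alone (5). Without the filter on low counts, 8662 genes in all were called for *SNAI1*-KO, 7528 for CS16, 7513 for CS19 and 352 for CS16 against CS19. By adjusted p alone, 12506, 10342, 10014 and 4814 genes were called for *SNAI1*-KO, CS16, CS19 and CS16 against CS19, and 2 of the 10 genes in CS16 against CS19 in place of 0. With that rule *GRHL1* was the gene added in CS16 against WT. The log2 fold change of *ESRP2* for CS16 over CS19, which was not called, ranged from -0.30 to 0.22 on leaving out single libraries and changed sign without CS16-2 (0.22) and without CS19-1 (0.05), and the cause was not tested. Leaving out single libraries gave 5165 to 5963 genes for *SNAI1*-KO, 5176 to 5823 for CS16, 5167 to 5743 for CS19 and 224 to 258 for CS16 against CS19, with 5, 4, 5 and 0 of the 10 genes. DESeq2 called 7662, 6880, 6871 and 215 genes. With the replicate number as a block, 5220, 4943, 4921 and 201 genes were called, with no change for the 10 genes, and the nearest library of another group had the same number in 4 of 18 cases, so the numbers were not taken as pairs. RLE in place of TMM moved the median log2 fold change of all genes by at most 0.024. *RAB25*, *ESRP1*, *GRHL2*, *OVOL1* and *OVOL2* had at most 5 counts in any library, so a difference between the groups was not detectable for them at this depth.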
